A study of Arabidopsis thaliana with 18 samples.

Results

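The chloroplast genome of Arabidopsis thaliana was represented by 88 rows of the deposited count table, all those whose identifier starts with ATCG, out of 27628 genes in all. All 88 passed the filter on low counts. In 7 pairs of rows the values were identical in every library, so the 88 rows are 81 distinct measurements. Of these pairs, 6 carry 1 gene name each and are copies of the inverted repeat, whose reads cannot be assigned to one copy. The table gives identifiers without names, and the RefSeq annotation lists the chloroplast genes under other locus tags. The gene names used here therefore follow TAIR nomenclature from general knowledge for 86 of the 88 identifiers, and the identical pair ATCG00870 and ATCG01270 was left without a name. As a check on the names, 83 identifiers were given a RefSeq position through their name, and 0 of them were out of order with the RefSeq start positions.

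Leaves were sequenced in 18 libraries, 3 in each of 6 groups: ml2 at day 7 and day 0, ml5 at day 7 and day 0, and WT at day 7 and day 0. The treatment label is dark for all of them, and the ml2 and ml5 lines are labelled as knockdowns. The sample titles give day 7 and day 0. The matching of table columns to these titles, with D read as day 7 and CK as day 0, is an inference. Doxycycline appears in the extraction protocol and in no sample label. The sources used here do not state the origin of the knockdown lines, plant age, the method of RNA enrichment or whether replicates were separate plants, so each p-value reflects the scatter among these libraries, which may be technical.

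The chloroplast genome encodes core subunits of both photosystems, the cytochrome b6f complex, ATP synthase, the NDH complex of cyclic electron flow, the large subunit of Rubisco, and part of the plastid ribosome and RNA polymerase, while the remaining subunits come from the nucleus. It is transcribed by a bacterial-type polymerase, whose core is chloroplast-encoded and whose sigma factors are nuclear, and by phage-type polymerases encoded in the nucleus. Its transcripts mostly lack a stable poly(A) tail, so that in libraries made from poly(A) RNA they can be present as carry-over; transcripts of the mitochondria-encoded genes share this property and are given beside them.

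A bacterial-type promoter is shown for psbA (ATCG00020), the gene of the D1 reaction centre protein of photosystem II, since psbA had the highest level of the 88 in all 18 libraries. The 250 bases before the start codon of 77 genes were searched on the coding strand for TTGACA, and for TTGACA with TATNNT 15 to 20 bases further on. The first motif was in 8 of the 77 windows (10.4%) and both together were in 1 (1.3%), that of psbA. The stretch lies on the minus strand at chloroplast:1530-1559 of the RefSeq TAIR10.1 sequence and begins 115 bases before the start codon. Capitals mark the motifs, which are 18 bases apart.
psbA: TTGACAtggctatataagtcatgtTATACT

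Libraries held between 14914598 and 20417396 counts, of which 18497 to 134590 were chloroplast-encoded. The targeted transcripts were low in their lines: at day 7, ML2 averaged 27.8 ± 1.69 CPM (counts scaled to library size with TMM factors) in ml2 and 252.7 ± 5.0 CPM in WT, and ML5 averaged 0.69 ± 0.17 CPM in ml5 and 327.5 ± 14.5 CPM in WT (SD, n = 3 each). For the marker lists only, CPM were scaled by library size alone, without TMM factors, so they are not on the scale of the other CPM values. The summed leaf mesophyll markers averaged 346.9 CPM in ml2, 824.2 CPM in ml5 and 425.5 CPM in WT at day 7. At day 0 they averaged 24459.9 CPM in ml2, 29835.6 CPM in ml5 and 32748.5 CPM in WT. Of the lists for other organs, root markers summed to 1.05 to 6.1 CPM and flower markers to 1.51 to 4.0 CPM over the group means, and the root genes RHD6 and IRT1 were at 0 in all 18 libraries. In the make-up of its chloroplast counts, ml5 day 7 replicate 3 stood apart, with photosystem II at 71.5% against 59.7% and 57.5% in its group mates. It also had the largest chloroplast share of its group. In ml2 day 0 replicate 1, photosystem I held 12.3% against 15.1% and 15.7% in its group mates. In WT day 0 replicate 1 it held 10.8% against 12.7% and 12.4%. Replicate 1 had the smallest chloroplast share of each day 0 group, at 0.256% in ml2, 0.674% in ml5 and 0.355% in WT.

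After 7 days in the dark the chloroplast genome contributed a smaller share of the leaf counts in each genotype. In ml2 the share was 0.153%, 0.117% and 0.109% of all counts at day 7, against 0.256%, 0.318% and 0.353% at day 0. The ml5 libraries gave 0.107%, 0.0906% and 0.211% at day 7, against 0.674%, 0.801% and 0.752% at day 0. For WT the values were 0.173%, 0.216% and 0.138% at day 7, against 0.355%, 0.508% and 0.509% at day 0. Every day 7 library lay below every day 0 library of its genotype, and the mean at day 0 was 2.45 times that at day 7 in ml2, 5.45 times in ml5 and 2.6 times in WT. Without the counts of psbA, which made up a large part of the day 7 counts, it was 3.5 times that at day 7 in ml2, 7.26 times in ml5 and 4.09 times in WT. In bulk leaf RNA, fewer cells or chloroplasts and less RNA in each cannot be told apart.

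The share of the mitochondria-encoded genes moved less. It was 0.0273% ± 0.00289 at day 7 and 0.0187% ± 0.000451 at day 0 in ml2, where day 7 lay above day 0. In ml5 it was 0.0252% ± 0.00348 at day 7 and 0.0306% ± 0.00189 at day 0, and in WT 0.0281% ± 0.00212 at day 7 and 0.0245% ± 0.00335 at day 0 (SD, n = 3 each), with overlap in both. Of the 68 mitochondria-encoded genes tested, 9 (13.2%) were called lower and 26 (38.2%) higher in ml2. In ml5, 33 (48.5%) were called lower and 6 (8.82%) higher, and in WT 20 (29.4%) lower and 4 (5.88%) higher. Of all genes tested, 40.2% were called lower and 39.6% higher in ml2. The shares of all genes were 40.1% lower and 39.7% higher in ml5, and 39.9% lower and 42% higher in WT. The median log2 fold changes of the 68 were 0.43 in ml2, -0.6 in ml5 and -0.2 in WT. Chloroplast counts per mitochondrial count were 4.36 to 5.0 at day 7 and 14.1 to 18.5 at day 0 in ml2, 4.0 to 7.24 at day 7 and 23.6 to 25.0 at day 0 in ml5, and 5.36 to 7.32 at day 7 and 17.2 to 19.6 at day 0 in WT. Relative to the other organelle, too, the chloroplast counts were lower in every day 7 library. The part of carried-over RNA without a poly(A) tail in the dark response was not tested.

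**Figure D1:**
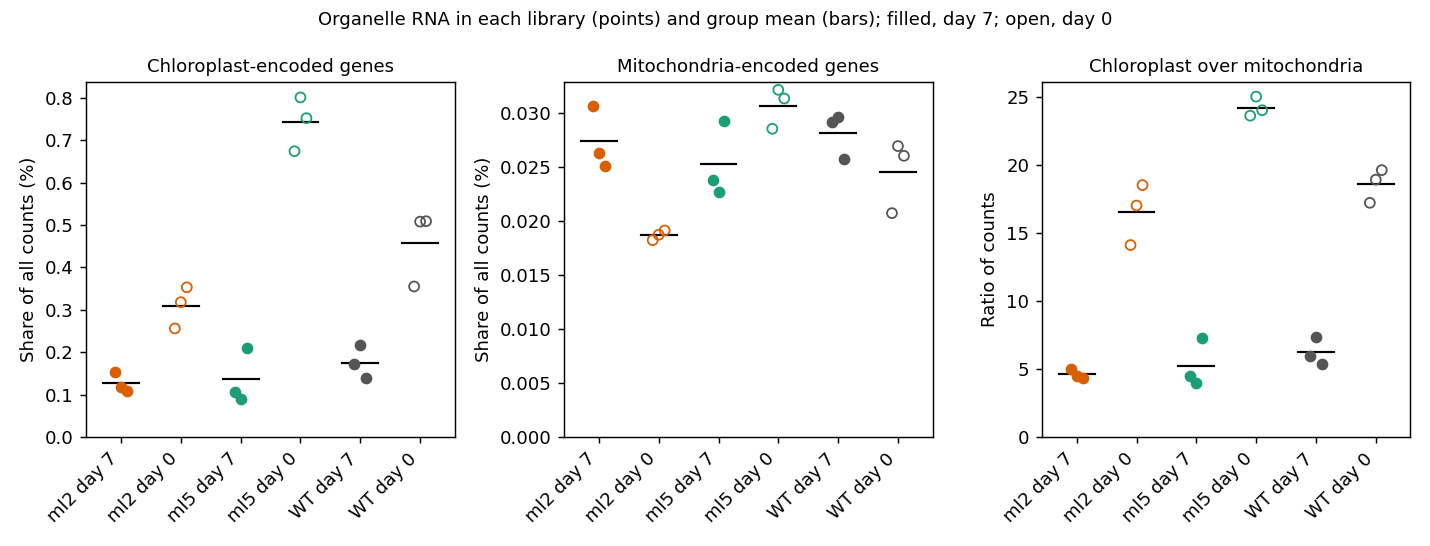
Share of all counts from chloroplast-encoded genes (left, %), from mitochondria-encoded genes (middle, %) and the ratio of these counts (right) by group; points are the 18 libraries and bars the group means. The chloroplast share is 0.0906% to 0.216% in the day 7 libraries and 0.256% to 0.801% in the day 0 libraries.

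Within the smaller pool, psbA held a larger part at day 7 and rbcL (ATCG00490), the gene of the large subunit of Rubisco, a smaller one. psbA made up 50.8%, 47.5% and 48.7% of the chloroplast counts at day 7 and 25.7%, 28.5% and 26.6% at day 0 in ml2. In ml5 it made up 38.0%, 36.5% and 54.5% at day 7 and 28.5%, 28.5% and 27.9% at day 0. In WT it made up 48.9%, 60.4% and 50.5% at day 7 and 27.2%, 28.2% and 28.3% at day 0, so that the days did not overlap in any genotype. rbcL held 3.31% ± 0.271 at day 7 and 11.9% ± 0.874 at day 0 in ml2, 4.72% ± 0.0321 at day 7 and 13.5% ± 0.436 at day 0 in ml5, and 3.17% ± 0.155 at day 7 and 13.4% ± 0.208 at day 0 in WT (SD, n = 3 each).

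Of the other complexes, the RNA polymerase genes held 0.48% at day 7 and 1.57% at day 0 in ml2, 0.555% at day 7 and 1.32% at day 0 in ml5, and 0.376% at day 7 and 1.66% at day 0 in WT. ATP synthase genes held 3.63% at day 7 and 8.24% at day 0 in ml2, 5.85% at day 7 and 7.84% at day 0 in ml5, and 3.56% at day 7 and 8.83% at day 0 in WT. The cytochrome b6f genes held a larger part at day 7, with 5.94% at day 7 and 4.81% at day 0 in ml2, 5.89% at day 7 and 4.41% at day 0 in ml5, and 5.63% at day 7 and 4.65% at day 0 in WT. At day 0 the photosystem II genes took 46.0% to 47.9% of the chloroplast counts in all 9 libraries, whichever the genotype.

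**Figure D2:**
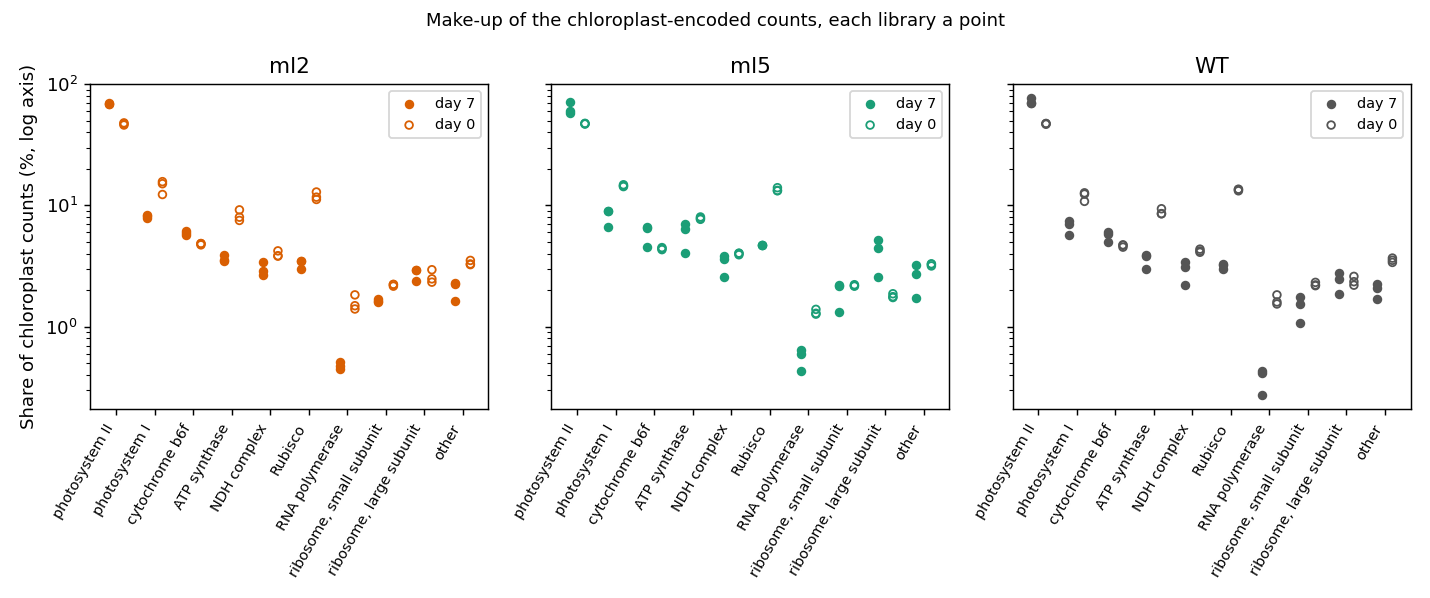
Share of the chloroplast-encoded counts held by each functional group (%, log axis) in ml2, ml5 and WT; each point is a library, filled at day 7 and open at day 0. Photosystem II holds 57.5% to 76.2% at day 7 and 46.0% to 47.9% at day 0, and Rubisco 3.0% to 4.76% at day 7 and 11.2% to 14.0% at day 0.

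Per length of coding sequence, psbA had the highest level of 78 genes in all 6 groups. At day 7 it had 536.5 CPM per kb in ml2, 512.9 in ml5 and 795.5 in WT. At day 0 rbcL came second, with 271.7 CPM per kb in ml2, 797.6 in ml5 and 494.1 in WT. At day 7 petN, which encodes a small subunit of the cytochrome b6f complex, came second, with 112.3 CPM per kb in ml2, 144.7 in ml5 and 162.2 in WT. The coding sequence of petN has 90 bases, against 1440 in rbcL. For so short a sequence the level per kb is uncertain, so its rank against longer genes is too. By then rbcL had 26.8 CPM per kb in ml2, 38.6 in ml5 and 34.2 in WT. The lowest level per kb in all 6 groups was that of ycf2 (ATCG00860, identical to ATCG01280). This row may hold only part of the reads of the pair, so its rank against genes with a single copy is uncertain.

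Each of the 88 chloroplast-encoded genes fell in the dark in each genotype by edgeR's quasi-likelihood test with Benjamini-Hochberg adjustment over 19493 genes (threshold 0.05). Of all genes tested, 40.2% were called lower and 39.6% higher in ml2, 40.1% lower and 39.7% higher in ml5, and 39.9% lower and 42% higher in WT. The median log2 fold change of the 88 was -1.99 in ml2, -3.26 in ml5 and -2.35 in WT, against 0.0 in ml2, 0.0 in ml5 and 0.04 in WT over all genes. With library sizes alone as the normalization, the median of all genes moved by 0.23 in ml2, 0.41 in ml5 and 0.38 in WT, and the median of the 88 was -1.77 in ml2, -2.85 in ml5 and -1.97 in WT. The fitted fall was at least 8-fold for 16 genes in ml2, 47 in ml5 and 28 in WT. The value was the most negative of the 3 genotypes in ml5 for 80 of the 88 genes and least negative in ml2 for 84. These rows share libraries, so the tallies are only a description. The interaction test given below called 43 genes (48.9%) in ml5, against 18.1% of all genes called lower. It called 7 (7.95%) in ml2, below the 13.4% of all genes called higher.

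**Figure D3:**
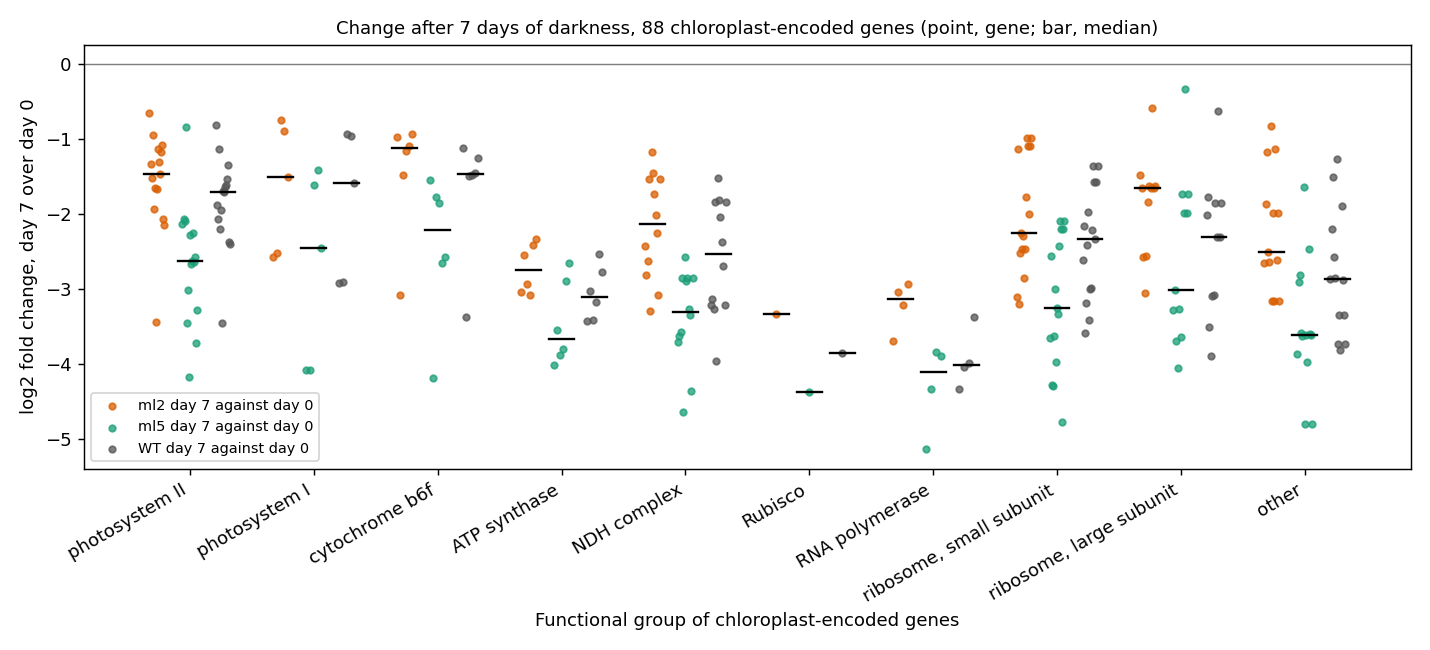
Log2 fold change of day 7 over day 0 (vertical axis) of the 88 chloroplast-encoded genes by functional group (horizontal axis) in ml2, ml5 and WT; points are genes and bars medians. All points lie below 0, between -5.14 for rpoC2 and -0.34 for rpl32, both in ml5.

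All 15 photosystem II genes were called lower in each genotype, with medians of -1.47 in ml2, -2.63 in ml5 and -1.71 in WT. The smallest fall among them in WT was that of psbA, which had 714.7, 505.0 and 489.6 CPM at day 7 and 705.4, 980.1 and 994.5 CPM at day 0 in ml2. In ml5 psbA had 352.2, 284.8 and 997.2 CPM at day 7 and 2205.5, 2608.6 and 2407.4 CPM at day 0. The WT libraries had 750.0, 1165.7 and 618.9 CPM of psbA at day 7 and 1112.3, 1668.0 and 1670.3 CPM at day 0. The days overlapped in ml2 and in WT and not in ml5, where replicate 3 of day 7 stood far above its group mates. The log2 fold change of psbA was -0.65 ± 0.27 in ml2 (SE; adjusted p = 0.0271), -2.14 ± 0.27 in ml5 (adjusted p = 3.03e-08) and -0.81 ± 0.27 in WT (adjusted p = 0.00637). The calls in ml2 and WT were lost with DESeq2 (adjusted p = 0.167 in ml2 and 0.0605 in WT) and with library sizes alone (0.144 in ml2 and 0.134 in WT). The WT call was also lost without WT day 7 replicate 3 (adjusted p = 0.0524). That in ml2 was lost on leaving out its day 0 replicate 2 (adjusted p = 0.0548) or 3 (0.0853), or its day 7 replicate 2 (0.0901) or 3 (0.104).

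The steepest fall of a photosystem II gene in WT was that of psbZ (ATCG00300), a small core subunit, with 2.62, 2.2 and 1.61 CPM at day 7 and 17.7, 25.8 and 28.2 CPM at day 0. Its log2 fold change was -3.44 ± 0.26 in ml2, -4.17 ± 0.23 in ml5 and -3.46 ± 0.24 in WT. psbZ lies downstream of psbD and psbC, the genes of the D2 and CP43 proteins, which had -2.20 and -1.95 in WT. The coding sequences of psbD and psbC share 53 bases, so their counts may have been split between them.

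The 5 photosystem I genes were called lower in each genotype, with medians of -1.51 in ml2, -2.46 in ml5 and -1.59 in WT. psaB (ATCG00340), which with psaA forms the reaction centre, had 51.1, 33.4 and 31.8 CPM at day 7 and 159.9, 245.9 and 290.1 CPM at day 0 in ml2. It had 34.6, 26.4 and 49.8 CPM at day 7 and 565.3, 668.5 and 641.1 CPM at day 0 in ml5. In WT it had 47.2, 43.4 and 33.4 CPM at day 7 and 215.4, 368.8 and 355.2 CPM at day 0. The days were far apart in each genotype, with log2 fold changes of -2.58 ± 0.2 in ml2, -4.08 ± 0.21 in ml5 and -2.92 ± 0.2 in WT. psaA (ATCG00350) had -2.52 ± 0.2 in ml2, -4.08 ± 0.21 in ml5 and -2.91 ± 0.21 in WT. The gene of the small subunit psaI (ATCG00510) fell less, with -0.75 ± 0.15 in ml2, -1.61 ± 0.13 in ml5 and -0.94 ± 0.13 in WT.

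In the cytochrome b6f complex, which links the photosystems, petA (ATCG00540), the gene of cytochrome f, stood apart from the other 5 members. It had 3.7, 3.27 and 3.02 CPM at day 7 and 25.8, 37.2 and 41.8 CPM at day 0 in WT. Its log2 fold change was -3.08 ± 0.16 in ml2, -4.19 ± 0.15 in ml5 and -3.38 ± 0.15 in WT, where the other 5 lay between -1.50 for petL and -1.12 for petN. petB (ATCG00720), the gene of cytochrome b6 and the member with the highest mean CPM, had -1.09 ± 0.17 in ml2, -2.66 ± 0.17 in ml5 and -1.45 ± 0.17 in WT. petN (ATCG00210) fell least in WT, with -0.97 ± 0.11 in ml2, -1.55 ± 0.1 in ml5 and -1.12 ± 0.1 in WT.

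The 6 ATP synthase genes were called lower with medians of -2.74 in ml2, -3.67 in ml5 and -3.1 in WT. atpA (ATCG00120), the gene of the alpha subunit, had 9.03, 9.65 and 7.6 CPM at day 7 and 63.5, 69.5 and 82.8 CPM at day 0 in ml2. It had 11.4, 9.2 and 17.7 CPM at day 7 and 185.4, 219.4 and 213.2 CPM at day 0 in ml5, and in WT 12.2, 12.6 and 10.3 CPM at day 7 and 96.1, 140.7 and 143.6 CPM at day 0. The days did not overlap in any genotype. atpA fell most of the 6 in WT, with -3.04 ± 0.16 in ml2, -4.02 ± 0.15 in ml5 and -3.43 ± 0.15 in WT, and atpE (ATCG00470), the gene of the epsilon subunit, fell least, with -2.41 ± 0.14 in ml2, -2.90 ± 0.12 in ml5 and -2.54 ± 0.13 in WT.

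rbcL, the only Rubisco gene of the chloroplast genome, had 48.8, 36.9 and 30.1 CPM at day 7 and 353.2, 402.9 and 417.9 CPM at day 0 in ml2. In ml5 it had 43.7, 37.2 and 86.1 CPM at day 7 and 1083.8, 1210.1 and 1151.7 CPM at day 0, and in WT 49.4, 57.9 and 40.5 CPM at day 7 and 554.0, 797.6 and 782.8 CPM at day 0. All day 7 libraries were far below those of day 0, and the log2 fold change was -3.34 ± 0.19 in ml2, -4.37 ± 0.2 in ml5 and -3.85 ± 0.19 in WT.

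The NDH complex, which returns electrons around photosystem I, had all 12 rows called lower in each genotype, of which the 2 ndhB rows are one measurement. ndhF (ATCG01010), the gene of a membrane subunit, fell most in WT, with 1.89, 1.17 and 2.06 CPM at day 7 and 22.2, 30.3 and 27.6 CPM at day 0. In ml2 it had 1.2, 1.85 and 1.71 CPM at day 7 and 16.4, 14.9 and 15.9 CPM at day 0, and in ml5 1.76, 1.35 and 1.93 CPM at day 7 and 34.9, 47.4 and 43.6 CPM at day 0. The groups were far apart, and the log2 fold change was -3.30 ± 0.18 in ml2, -4.64 ± 0.16 in ml5 and -3.96 ± 0.17 in WT. ndhD (ATCG01050) had the highest mean CPM of the complex and fell least in WT, with -1.18 ± 0.16 in ml2, -2.58 ± 0.15 in ml5 and -1.52 ± 0.15 in WT.

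The 4 genes of the core RNA polymerase had medians of -3.13 in ml2, -4.11 in ml5 and -4.01 in WT, and rpoC2 (ATCG00170) had the most negative value of the 88 in each genotype. rpoB (ATCG00190), the gene of the beta subunit, had 2.29, 1.85 and 2.44 CPM at day 7 and 21.9, 19.6 and 20.2 CPM at day 0 in ml2. It had 2.18, 2.03 and 3.23 CPM at day 7 and 32.0, 39.9 and 34.3 CPM at day 0 in ml5, and in WT 1.85, 2.06 and 2.31 CPM at day 7 and 30.6, 34.8 and 33.1 CPM at day 0. The days were far apart in each genotype, and rpoB had -3.22 ± 0.14 in ml2, -3.84 ± 0.13 in ml5 and -3.99 ± 0.14 in WT. rpoC2 had -3.69 ± 0.24 in ml2, -5.14 ± 0.21 in ml5 and -4.34 ± 0.22 in WT. rpoA (ATCG00740), the gene of the alpha subunit, had -2.94 ± 0.2 in ml2, -3.90 ± 0.16 in ml5 and -3.38 ± 0.18 in WT.

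Of the plastid ribosome, all 15 rows of the small subunit and all 11 of the large subunit were called lower in each genotype. rpl32 (ATCG01020) fell least of the 88 in WT, with 13.5, 12.2 and 14.4 CPM at day 7 and 18.4, 20.5 and 22.9 CPM at day 0. In ml2 it had 13.5, 13.5 and 12.1 CPM at day 7 and 18.9, 18.1 and 21.8 CPM at day 0, and in ml5 16.9, 16.4 and 19.5 CPM at day 7 and 22.7, 23.5 and 20.6 CPM at day 0. The days did not overlap, although the gap was small. The log2 fold change was -0.59 ± 0.099 in ml2 (adjusted p = 3.31e-06), -0.34 ± 0.096 in ml5 (adjusted p = 0.00185) and -0.63 ± 0.1 in WT (adjusted p = 1.51e-06), and with library sizes alone the ml5 value was 0.06 (adjusted p = 0.54). rpl14 (ATCG00780) fell most of the large subunit genes in WT, with -3.05 ± 0.31 in ml2, -4.06 ± 0.27 in ml5 and -3.90 ± 0.3 in WT.

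In the small subunit, rps14 (ATCG00330), which follows psaA and psaB on the same strand, had the highest mean CPM, with -2.52 ± 0.2 in ml2, -4.30 ± 0.19 in ml5 and -3.19 ± 0.2 in WT. rps2 (ATCG00160) fell most in WT, with -3.20 ± 0.33 in ml2, -4.28 ± 0.28 in ml5 and -3.59 ± 0.3 in WT. rps7 (ATCG00900, identical to ATCG01240) fell least, with -0.99 ± 0.16 in ml2, -2.10 ± 0.14 in ml5 and -1.36 ± 0.15 in WT.

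Among the remaining 13 rows, clpP (ATCG00670), the gene of a subunit of the stromal protease, fell least in WT, with -0.83 ± 0.14 in ml2, -1.64 ± 0.12 in ml5 and -1.27 ± 0.13 in WT. accD (ATCG00500), the gene of a subunit of the acetyl-CoA carboxylase of fatty acid synthesis, had -1.17 ± 0.2 in ml2, -2.81 ± 0.19 in ml5 and -1.51 ± 0.19 in WT. The envelope protein gene cemA (ATCG00530) had -2.64 ± 0.14 in ml2, -3.63 ± 0.13 in ml5 and -2.85 ± 0.13 in WT. ycf1 (ATCG01000), the shorter of the ycf1 rows, fell most in WT, with -3.16 ± 0.19 in ml2, -3.97 ± 0.17 in ml5 and -3.82 ± 0.18 in WT.

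Genes of one complex did not always move alike, and neighbours on one strand had like values in some clusters and not in others. These clusters were chosen after the values were seen, and their likeness was not tested. In the direction of transcription, the WT log2 fold change was -3.22 for ndhH, -2.70 for ndhA, -2.37 for ndhI, -2.04 for ndhG, -1.82 for ndhE, -1.59 for psaC and -1.52 for ndhD. In ml2 these genes lay between -3.08 for ndhH and -1.18 for ndhD, and in ml5 between -4.36 for ndhH and -2.46 for psaC. The size of the fall thus became smaller at each step along the cluster in WT, and nearly so in the lines. psaC, the gene of the iron-sulphur subunit of photosystem I, had a value near those of ndhE and ndhD and not near that of psaA.

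In the cluster of psbB to petD, which joins photosystem II and cytochrome b6f genes, psbH had -2.40 in WT, against -1.54 for psbB, -1.35 for psbT, -1.45 for petB and -1.25 for petD. psbN lies on the opposite strand between psbT and psbH, and reads of opposite strands cannot be told apart where counting did not use strand. In the cluster of psaA to rps14, the values were -2.91 for psaA, -2.92 for psaB and -3.19 for rps14.

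**Figure D4:**
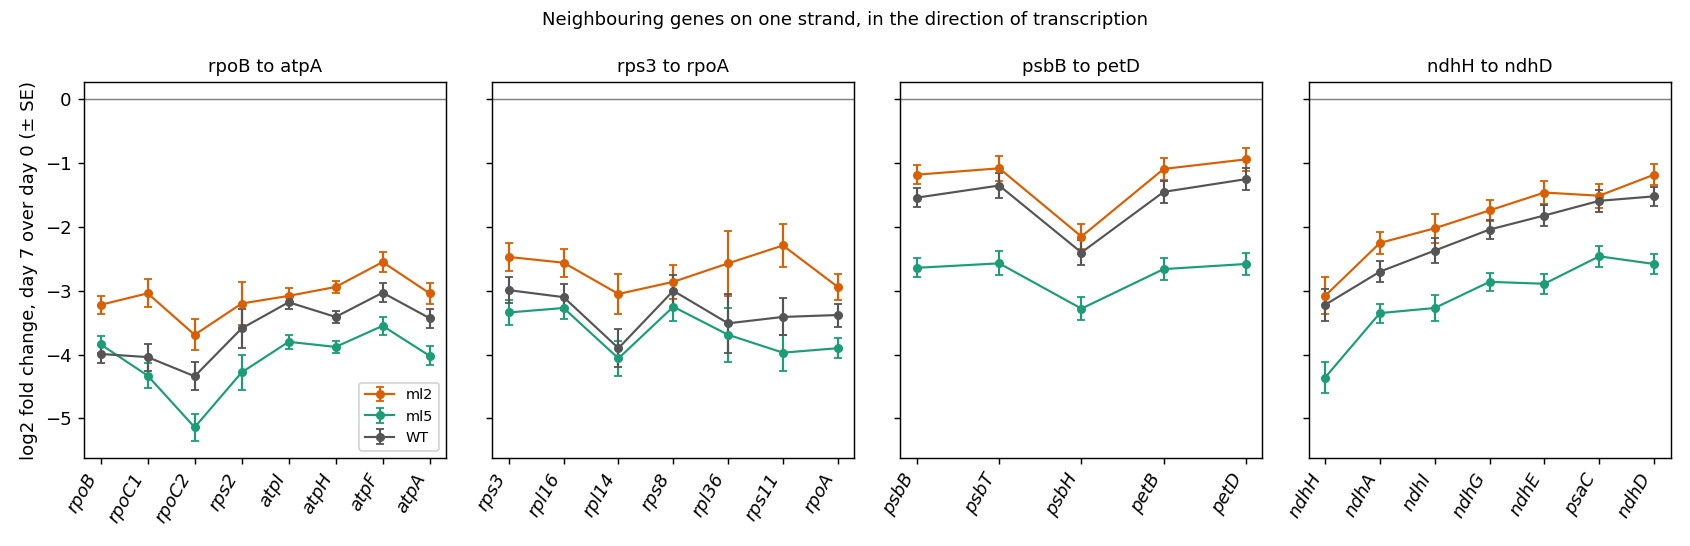
Log2 fold change of day 7 over day 0 (vertical axis, ± SE) of neighbouring genes in the direction of transcription (horizontal axis) in 4 clusters, for ml2, ml5 and WT. In WT the values run between -3.22 for ndhH and -1.52 for ndhD at the ends of their cluster, and psbH lies below its neighbours.

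Across the 78 genes with a coding length, the Spearman rho between the dark log2 fold change and coding length was -0.45 in ml2, -0.49 in ml5 and -0.44 in WT, longer genes having the more negative values. With the longest run of A in the coding sequence, rho was -0.29 in ml2, -0.33 in ml5 and -0.27 in WT. The level per kb in WT at day 0 had a rho of -0.61 with the A content and -0.48 with the longest run of A. Its rho with coding length, by which the level is divided, was -0.32. The part of A-rich sequence in these levels was not tested. These are descriptions, with no test, across genes that share libraries and often transcripts.

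Most listed nuclear partners of the same complexes also fell in the dark. Of all genes tested, 40.2% were called lower in ml2, 40.1% in ml5 and 39.9% in WT. All 12 listed nuclear genes of the photosystem I core were called lower, with medians of -4.23 in ml2, -3.94 in ml5 and -4.58 in WT. All 17 nuclear NDH genes were called lower, with medians of -6.32 in ml2, -6.16 in ml5 and -7.05 in WT, as were the 4 Rubisco small subunit genes, with -6.39 in ml2, -5.49 in ml5 and -7.13 in WT. All 29 nuclear genes of the plastid ribosome were called lower, with medians of -2.41 in ml2, -2.19 in ml5 and -2.74 in WT. All 6 sigma factors, which give the bacterial-type polymerase its promoter choice, were called lower, with medians of -2.57 in ml2, -2.12 in ml5 and -2.69 in WT. Of 12 nuclear proteins associated with the plastid polymerase, 11 were called lower and 1 higher in ml2, 10 lower and 1 higher in ml5, and 11 lower and 0 higher in WT. The exception, PDE312, was at 0.45 ± 0.073 in ml2 and 0.50 ± 0.07 in ml5, both called higher, and at 0.07 ± 0.071 in WT (adjusted p = 0.37). PTAC2 was not called in ml5, at -0.02 ± 0.089 (adjusted p = 0.809).

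The 3 phage-type polymerase genes did not move alike. SCA3 (AT2G24120), which encodes the plastid enzyme, was not called in ml2, at 0.21 ± 0.13 (adjusted p = 0.15), was higher in ml5, at 0.70 ± 0.13 (adjusted p = 1.69e-05), and was lower in WT, at -0.51 ± 0.13 (adjusted p = 0.000646). AT5G15700, the gene of an enzyme of both organelles, was called higher in each genotype, with 2.22 ± 0.1 in ml2, 2.67 ± 0.11 in ml5 and 2.11 ± 0.1 in WT. MGP3 (AT1G68990), the gene of the mitochondrial enzyme, was likewise called higher, with 0.77 ± 0.095 in ml2, 1.46 ± 0.098 in ml5 and 0.56 ± 0.094 in WT. These stand against 39.6% of all genes called higher in ml2, 39.7% in ml5 and 42% in WT.

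At day 0 the lines differed from WT in opposite directions. In ml2, 79 of the 88 genes were lower than in WT and 0 higher, with a median log2 fold change of -0.76, where 22.6% of all genes were called lower and 21.9% higher. In ml5, 67 were higher than in WT and 0 lower, with a median of 0.59, where 19.5% of all genes were called higher and 18.8% lower. The 67 became 42 without WT day 0 replicate 1, which had the smallest chloroplast share of its group. Both comparisons use the same WT libraries, and 63 genes were called in both. Against ml2, 85 were higher in ml5 and 0 lower, with a median of 1.28, where 14.2% of all genes were called higher and 14.5% lower.

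The chloroplast share at day 0 averaged 0.309% ± 0.0491 in ml2, 0.742% ± 0.064 in ml5 and 0.457% ± 0.0886 in WT (SD, n = 3 each). The groups did not overlap, although the highest ml2 library, at 0.353%, was close to the lowest of WT, at 0.355%. Without the psbA counts it averaged 0.225% in ml2 and 0.33% in WT, and these libraries overlapped. atpH (ATCG00140), the gene of the ring subunit of ATP synthase, had 32.4, 34.2 and 36.5 CPM in ml2, 77.8, 83.3 and 81.6 CPM in ml5 and 53.7, 65.6 and 62.2 CPM in WT. The 3 groups did not overlap, and the log2 fold change over WT was -0.81 ± 0.074 in ml2 (adjusted p = 1.27e-10) and 0.42 ± 0.07 in ml5 (adjusted p = 1.28e-05). In ml2, psbK (ATCG00070), the gene of a small photosystem II subunit, was at -0.92 ± 0.096 and atpB (ATCG00480), the gene of the beta subunit of ATP synthase, at -0.75 ± 0.097. In ml5, cemA was at 0.72 ± 0.1 and ndhF at 0.66 ± 0.11. ml5 over ml2 gave 1.23 ± 0.072 for atpH, 1.17 ± 0.091 for atpI (ATCG00150), the gene of another membrane subunit, and 1.15 ± 0.095 for psbK.

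rbcL was at -0.86 ± 0.17 in ml2 (adjusted p = 9.1e-05) and 0.69 ± 0.17 in ml5 (adjusted p = 0.00125) relative to WT. psbA was at -0.73 ± 0.27 in ml2 (adjusted p = 0.025) and 0.70 ± 0.26 in ml5 (adjusted p = 0.0365). psaA was not called in ml2, at -0.37 ± 0.18 (adjusted p = 0.1), and was higher in ml5, at 0.99 ± 0.18 (adjusted p = 5.15e-05). rpoB was lower in ml2, at -0.67 ± 0.099 (adjusted p = 1.34e-06), and was not called in ml5, at 0.11 ± 0.096 (adjusted p = 0.396). accD was at -0.64 ± 0.18 in ml2 and 0.69 ± 0.17 in ml5, and clpP at -0.91 ± 0.13 in ml2 and 0.42 ± 0.12 in ml5, all called. rpl32 was called in neither line, with -0.07 in ml2 (adjusted p = 0.584) and 0.11 in ml5 (adjusted p = 0.403).

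By complex, all 6 ATP synthase, 12 NDH and 4 RNA polymerase rows were lower in ml2 than in WT at day 0, as were 14 of 15 photosystem II, 5 of 6 cytochrome b6f and 3 of 5 photosystem I rows. In ml5 all 6 ATP synthase and 12 NDH rows were higher than in WT, as were 14 of 15 photosystem II, 5 of 6 cytochrome b6f and 4 of 5 photosystem I rows. Fewer were called higher in ml5 among the large ribosomal subunit, with 3 of 11, and the RNA polymerase, with 2 of 4. The nuclear partners did not share the direction seen in ml5. There, 6 of 12 nuclear photosystem I, 7 of 10 photosystem II and 16 of 17 NDH genes were lower than in WT, and 0 higher. Of the 12 proteins associated with the polymerase, 8 were lower and 1 higher in ml5, where 18.8% of all genes were called lower. In ml2 the nuclear partners did share the direction. There, 11 of 12 photosystem I, 8 of 10 photosystem II and 17 of 17 NDH genes were lower, and 0 higher. Of the polymerase-associated proteins, 9 were lower and 0 higher in ml2, where 22.6% of all genes were called lower.

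Of the 68 mitochondria-encoded genes tested at day 0, 24 (35.3%) were lower and 0 higher in ml2 than in WT, with a median of -0.54, where 22.6% of all genes were called lower. In ml5, 9 (13.2%) were higher and 1 lower than in WT, with a median of 0.15, below the 19.5% of all genes called higher. Their share of all counts was 0.0182% to 0.0191% in ml2, 0.0285% to 0.0321% in ml5 and 0.0207% to 0.0269% in WT. Chloroplast counts per mitochondrial count were 14.1 to 18.5 in ml2, which overlapped WT at 17.2 to 19.6, and 23.6 to 25.0 in ml5, which lay above WT. The part of carried-over RNA without a poly(A) tail in the differences between lines was not tested.

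**Figure D5:**
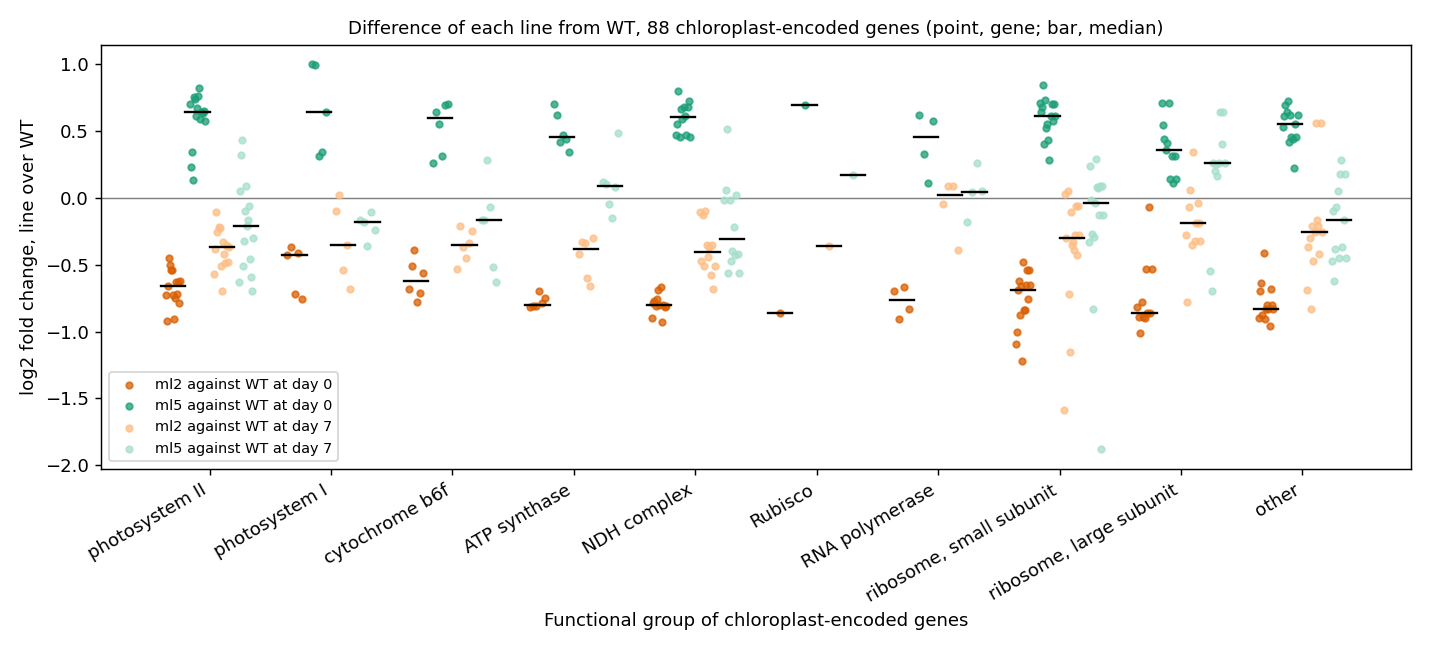
Log2 fold change of each line over WT (vertical axis) of the 88 chloroplast-encoded genes by functional group (horizontal axis) at day 0 and day 7; points are genes and bars medians. At day 0 the median of the 88 is -0.76 in ml2 and 0.59 in ml5, and at day 7 it is -0.34 in ml2 and -0.1 in ml5.

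At day 7 fewer of the chloroplast-encoded genes differed between genotypes. In ml2, 13 of the 88 were lower than in WT and 0 higher, with a median of -0.34, where 12.4% of all genes were called lower and 13.4% higher, so the 14.8% called lower was near the share of all genes. That count depended on the method, with 27 lower with no filter beyond 1 count, 24 with only the libraries compared in the fit and 7 with limma-voom. petN had 10.1, 9.41 and 10.8 CPM in ml2 and 13.4, 16.0 and 14.3 CPM in WT. All ml2 libraries lay below all WT libraries, with -0.53 ± 0.11 (adjusted p = 0.000508). atpE, at -0.66 ± 0.17 (adjusted p = 0.00352), and atpI, at -0.60 ± 0.16 (adjusted p = 0.00484), did not overlap between the groups either. The 13 became 8 without WT day 7 replicate 1 and 5 without WT day 7 replicate 2. They became 20 without ml2 day 7 replicate 1, 8 without ml2 day 7 replicate 2 and 5 without ml2 day 7 replicate 3.

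In ml5 at day 7, 12 of the 88 were lower and 4 higher than in WT, with a median of -0.1, where 24% of all genes were called lower and 19.3% higher. petD (ATCG00730), the gene of subunit IV of cytochrome b6f, had 17.1, 12.0 and 23.9 CPM in ml5 and 28.0, 29.5 and 23.9 CPM in WT. The ml5 libraries lay below those of WT, although the highest of ml5 and the lowest of WT were equal after rounding, with -0.63 ± 0.18 (adjusted p = 0.00598). psbB (ATCG00680), the gene of the CP47 antenna protein, was at -0.46 ± 0.15 (adjusted p = 0.0117) and petB at -0.52 ± 0.18 (adjusted p = 0.0162), with overlapping libraries. The higher genes were atpB at 0.48 ± 0.12 (adjusted p = 0.00124), rpl32 at 0.40 ± 0.097 (adjusted p = 0.00124), and the genes of the small photosystem II subunits psbM (ATCG00220) at 0.43 ± 0.17 (adjusted p = 0.0412) and psbI (ATCG00080) at 0.32 ± 0.13 (adjusted p = 0.0443).

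These counts rested on single libraries. The 12 became 19 without ml5 day 7 replicate 3, 0 without ml5 day 7 replicate 2 and 2 without ml5 day 7 replicate 1. They became 1 without WT day 7 replicate 1 and 4 without WT day 7 replicate 2. The 4 became 2 without WT day 7 replicate 3 or without ml5 day 7 replicate 3. petD lost its call without ml5 day 7 replicate 2 (adjusted p = 0.0768). psbB and petB lost theirs with DESeq2 (adjusted p = 0.0863 for psbB and 0.0962 for petB) and on leaving out WT day 7 replicate 1 or ml5 day 7 replicate 1 or 2, and petB also without WT day 7 replicate 2. psbM and psbI lost theirs with limma-voom (adjusted p = 0.0596 for psbM and 0.078 for psbI) and on leaving out WT day 7 replicate 1 or 3 or ml5 day 7 replicate 3, and psbI also without WT day 7 replicate 2 or ml5 day 7 replicate 1.

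Between the lines at day 7, 15 genes were higher in ml5 than in ml2 and 0 lower, with a median of 0.19, where 19% of all genes were called higher and 22.4% lower. atpB had 23.3, 23.2 and 28.9 CPM in ml5 and 17.9, 13.9 and 12.2 CPM in ml2. The groups did not overlap, with 0.78 ± 0.12 (adjusted p = 3.79e-06). atpE was at 0.75 ± 0.17 and rpl2 (ATCG00830, identical to ATCG01310) at 0.57 ± 0.11. Without ml5 day 7 replicate 3, 9 were higher and 8 lower.

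The difference between a line and WT in the dark response was tested by the interaction term of the same edgeR fit. In ml5, 43 of the 88 genes (48.9%) fell further than in WT and 0 less, with a median difference of -0.66, where 18.1% of all genes were called lower and 17.4% higher. The median log2 fold change of ml5 over WT was 0.59 at day 0 and -0.1 at day 7, so ml5 fell from a higher start. The difference in log2 fold change was -1.33 ± 0.24 for petD (adjusted p = 5.34e-05), -1.10 ± 0.2 for psbB (adjusted p = 6.63e-05) and -1.21 ± 0.23 for petB (adjusted p = 0.000117). All 5 photosystem I, 8 of 15 photosystem II, 8 of 12 NDH and 4 of 6 cytochrome b6f rows were among the 43, and 0 of the 4 RNA polymerase rows. psbA was at -1.33 ± 0.37 (adjusted p = 0.00568), accD at -1.30 ± 0.28 (adjusted p = 0.000386) and psaA at -1.17 ± 0.28 (adjusted p = 0.00146). rbcL, at -0.52 ± 0.25 (adjusted p = 0.112), and rpoB, at 0.15 ± 0.21 (adjusted p = 0.641), were not called.

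The most negative difference was that of rps15, a small ribosomal subunit gene named here after its values were seen, at -2.44 ± 0.78 (adjusted p = 0.014). It had 2, 2 and 1 counts at day 7 and 30, 37 and 25 counts at day 0 in ml5, and 7, 9 and 2 counts at day 7 and 17, 28 and 18 counts at day 0 in WT, so it rests on few counts at day 7. No listed nuclear partner of the photosystems, cytochrome b6f, ATP synthase, NDH or Rubisco was called lower in this comparison, where 17.4% of all genes were called higher. Called higher were all 12 of photosystem I (median 0.5), 9 of 10 of photosystem II (median 0.51), both of cytochrome b6f (median 1.01), all 3 of ATP synthase (median 0.84), 11 of 17 of NDH (median 1.22) and all 4 Rubisco small subunit genes (median 1.48). For the plastid ribosome 21 of 29 were called higher and 1 lower (median 0.32), and for expression all 6 sigma factors (median 0.52), 7 of 12 polymerase-associated proteins (median 0.44) and all 3 phage-type polymerases (median 0.89) were called higher. Of the 68 mitochondria-encoded genes, 10 (14.7%) were lower and 2 higher (median -0.32), below the 18.1% of all genes called lower. The part of RNA without a poly(A) tail in these differences was not tested.

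In ml2, 7 of the 88 genes (7.95%) fell less than in WT and 0 further, with a median difference of 0.35, where 13.4% of all genes were called higher and 15.6% lower, so the share called was below that of all genes and no result about the 88 is read from it. With library sizes alone 1 was called. The difference was 0.54 ± 0.15 for psbK (adjusted p = 0.00745), 0.76 ± 0.22 for rpoB (adjusted p = 0.00928) and 0.47 ± 0.15 for atpH (adjusted p = 0.0133). The others were psbI, atpB, rpoC1 and rpl22, between 0.45 for atpB and 1.25 for rpl22. psbK and atpH lost their calls with library sizes alone (adjusted p = 0.0545 for psbK and 0.0922 for atpH), and atpH also without WT day 7 replicate 3 (0.0635). The 7 became 13 without WT day 0 replicate 1, 4 without WT day 0 replicate 2, 4 without WT day 0 replicate 3 and 3 without WT day 7 replicate 3. They became 4 without ml2 day 7 replicate 1 and 4 without ml2 day 7 replicate 2. Of the mitochondria-encoded genes, 12 (17.6%) were higher in this comparison and 0 lower (median 0.58). Listed nuclear partners were also often called higher in ml2. These were 10 of 12 of photosystem I, 7 of 10 of photosystem II and 2 of 2 of cytochrome b6f. All 3 of ATP synthase, all 4 Rubisco small subunit genes and 22 of 29 of the plastid ribosome were too. For NDH 7 of 17 were higher and 1 lower, and for sigma factors 5 of 6 higher and 1 lower. Of polymerase-associated proteins 7 of 12 were higher, and of phage-type polymerases 1 of 3.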

How the data were processed

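The labels' protocols name Trizol extraction and a TruSeq RNA kit. TopHat2 2.0.12 and Bowtie2 2.0.6 are named in the submitters' processing notes, along with TAIR10 and a rice build. The table deposited by the authors holds estimated counts per gene, judged from its values, some of which are fractional. Neither a counting tool nor its handling of strand is named by those sources.

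Values were rounded to integers before fitting. Genes kept by filterByExpr (minimum count 10) were scaled by TMM and fitted as 6 group means over 18 libraries with the quasi-likelihood test of edgeR 4.0.16 (R 4.3.3), which tested 19493 genes in 11 comparisons with two-sided p-values adjusted within each. Precision depended on the library totals above and on the spread of each gene. The common biological coefficient of variation was 5.63% over all genes tested. Members could vary more: psbA had an SE of 0.27 in its dark log2 fold change in each genotype. Alternatives used limma 3.58.1, DESeq2 1.42.0, other scalings and filters, only the libraries compared, a replicate block, and each library left out in turn. The fit was tested on simulated data.

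Positions and sequence are from RefSeq TAIR10.1. Names and functional groups follow TAIR nomenclature from general knowledge, since the reference does not pair ATCG identifiers with names. RefSeq notes name 6 of the identifiers. All 6 notes were judged to fit by match words set by hand, which is a weak check. Genes were named by a rule: in each functional group the highest mean CPM and the largest and smallest fall in WT, in comparisons of lines up to 3 called genes per direction by adjusted p and any called against the majority, and psbA, rbcL, psaA, rpoB, accD and clpP throughout. Others are named as neighbours or for their values. The members, lists and rules were chosen with earlier results of these data known.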

Additional observations from a re-analysis of the deposited data

Results flagged for a closer look

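Each result given here is a difference between a line and WT in the response to darkness, by the interaction term of the edgeR fit. In ml2, 7 chloroplast-encoded genes (7.95%) fell less than in WT, below the 13.4% of all genes called higher, and the differences with the smallest adjusted p were 0.54 for psbK, 0.76 for rpoB and 0.47 for atpH (log2). With library sizes alone the count was 1, and psbK (adjusted p = 0.0545) and atpH (adjusted p = 0.0922) were not called. In ml5, 43 (48.9%) fell further than in WT, against 18.1% of all genes called lower, and the differences with the smallest adjusted p were -1.33 for petD, -1.10 for psbB and -1.21 for petB. The median of ml5 over WT was 0.59 at day 0 and -0.1 at day 7. Both comparisons use the same WT libraries.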

How the results depend on the processing

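Over the alternatives, 349 counts and shares stayed within 1.5 times (counts) or 1 SD between replicates (shares), and 35 did not. For named genes, 1547 values kept direction and call, 33 lost the call and 1 turned in sign, rpl32 in the dark in ml5 (0.06 with library sizes alone). The causes were not tested. At day 7, the count lower in ml2 than in WT was 27 with no filter beyond 1 count, 7 with limma-voom and 24 with only the libraries compared. Against WT, ml5 had 7 lower with DESeq2 and 2 higher with limma-voom; against ml2, it had 2 lower with that filter and 23 higher with library sizes alone. The count falling less in ml2 than in WT was 1 with library sizes alone and 16 with that filter. Without psbA, the chloroplast share was 0.0643% at day 7 and 0.225% at day 0 in ml2, 0.0733% at day 7 and 0.533% at day 0 in ml5, and 0.0807% at day 7 and 0.33% at day 0 in WT; the ml5 day 7 value is counted as within 1 SD because its libraries spread widely (SD 0.0653%).

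With each library left out in turn, genes lower in the dark numbered 85 to 88 in ml2, 88 in ml5 and 87 to 88 in WT. At day 0, 64 to 81 were lower in ml2 than in WT, and 42 to 67 were higher in ml5 than in WT. At day 7, 5 to 20 were lower in ml2 than in WT, 0 to 19 lower and 2 to 4 higher in ml5 than in WT, and 0 to 8 lower and 9 to 19 higher in ml5 than in ml2. The dark response differed for 3 to 13 genes in ml2 and 31 to 52 in ml5.

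With the replicate number as a block, 88 were lower in the dark in each genotype. At day 0, 76 were lower in ml2 and 66 higher in ml5 than in WT, and 85 higher in ml5 than in ml2; at day 7, 13 were lower in ml2, 14 lower and 3 higher in ml5 than in WT, and 14 higher in ml5 than in ml2. The dark response differed for 7 genes in ml2 and 44 in ml5, and psbI lost its call in ml5 at day 7 (adjusted p = 0.0576). Of 45 pairs of libraries with the same number, 0 had deviations correlated above 0.1 over all genes tested, so the numbers were not taken to pair the samples.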
